A study of Mus musculus with 6 samples.

Results

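The circadian clock was followed in stromal cultures of fetal mouse thymus through 10 genes, Per1, Per2, Per3, Cry1, Cry2, Arntl (the gene of Bmal1), Clock, Nr1d1, Nr1d2 and Dbp, each found once by its symbol among the 22513 genes of the deposited table. The genes were chosen by name, but the set was picked with the levels of these same 6 libraries known, so their values are a description. Where a member passed the threshold of the fit over all genes this is stated, and intervals of that fit are given, but no p-value is printed for a member and nothing is read from these calls. Each level is an FPKM, the number of sequenced fragments per length of transcript and per number of mapped fragments. All 10 genes passed the filter on low values, an average of 0.1 FPKM or more over the 6 libraries.

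Thymic lobes of C57BL/6 fetuses were kept in organ culture with 2-deoxyguanosine (2-DG) for 4 days, which kills developing haematopoietic cells and leaves the stroma. The lobes came from wild-type (WT) fetuses or from fetuses without Jmjd6 (Jmjd6-/-), the gene of a lysyl hydroxylase that acts on proteins of RNA splicing, and were cultured for 4 more days without or with RANKL, the cytokine that drives medullary epithelial cells to express Aire. There was 1 unstimulated library of each genotype and 2 RANKL libraries of each genotype, 6 in all. All groups shared the culture and the 2-DG. The sample labels call the paired RANKL libraries technical duplicates, so their spread may be technical. P-values between genotypes and for the difference in response measure only that spread. Those of the RANKL effect also take in the difference in response between genotypes, which rests on 1 unstimulated library of each.

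The estimated depth was 15800000 to 31100000 fragments per library. Jmjd6 was measured at 25.9 to 32.5 FPKM in the WT libraries and at 1.32 to 1.96 FPKM in those labelled Jmjd6-/-. Mettl23, the neighbour of Jmjd6, was measured at 24.5 to 31.6 FPKM in the WT and 0 to 0.0949 FPKM in the Jmjd6-/- libraries, so the genotypes differed in both genes, and their parts in a genotype difference cannot be told apart. The WT RANKL libraries stood further apart (median absolute log2 difference 0.28 over 12587 genes that averaged 1 FPKM or more) than the Jmjd6-/- RANKL libraries (0.077). The difference between the WT RANKL libraries followed the GC content of the transcripts, with a median log2 difference of replicate 1 to replicate 2 of 0.37 in the group of genes lowest in GC and −0.27 in the highest of 10 groups. Genotype differences of members that moved most with 1 of these libraries are given with and without it. In bulk RNA, fewer cells of a type and less RNA per cell cannot be told apart, and the labels do not give the hour at which lobes were collected.

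The clock of mammalian cells is a loop of transcription and repression that runs once a day in nearly every tissue. Bmal1 and Clock bind E-box sequences as a pair and switch on the Per and Cry genes, whose proteins return to the nucleus and block that pair. A second loop passes through Nr1d1 and Nr1d2, the Rev-erb nuclear receptors, which are switched on at E-boxes and repress Arntl at ROR elements, while Dbp is an output factor that binds D-boxes, among others in Per genes. Cells of a cultured tissue keep their own clocks, which drift apart unless a common signal such as serum or a glucocorticoid sets them.

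Promoter windows from RefSeq (GRCm38.p6, 250 bases before to 50 bases after a start site) were searched on both strands for the letters that these factors are known to bind, the E-box CACGTG, its variant CACGTT, the D-box TTANGTAA and the core of ROR elements AGGTCA. There were 13 windows for 9 of the 10 genes and none for Per2, and 8 of the genes had at least 1 match of any kind. The shares of all windows given below are per window and per kind of match, so they do not apply to that count. The stretches below are shown for Per3 and Nr1d2, the members called lower with RANKL, and for Per1 and Cry1, which carry an E-box and were not called, each read 5′ to 3′ on the gene's strand with the matched letters in capitals.
Per3, chr4:151044666-151044915, minus strand: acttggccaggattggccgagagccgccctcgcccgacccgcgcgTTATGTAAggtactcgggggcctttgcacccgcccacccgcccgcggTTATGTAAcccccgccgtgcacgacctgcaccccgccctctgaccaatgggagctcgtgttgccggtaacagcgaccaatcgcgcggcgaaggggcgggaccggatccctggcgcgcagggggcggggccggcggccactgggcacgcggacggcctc
Nr1d2, chr14:18239151-18239210, minus strand: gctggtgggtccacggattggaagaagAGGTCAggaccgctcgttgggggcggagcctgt
Per1, chr11:69098756-69098844, plus strand: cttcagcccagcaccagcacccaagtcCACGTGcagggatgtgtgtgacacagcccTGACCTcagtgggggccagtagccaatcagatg
Cry1, chr10:85185082-85185160, minus strand: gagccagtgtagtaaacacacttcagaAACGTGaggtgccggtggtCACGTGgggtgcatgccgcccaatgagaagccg

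The Per3 window held the D-box letters 2 times, 205 and 158 bases before the start site. At least 2 such matches were found in 27 of 32851 windows (0.0822%), and at least 1 in 2.32%. CACGTG stood in the windows of Per1 (166 bases before the start) and Cry1 (60 bases before), and in 7.15% of all windows. The variant CACGTT, read on the opposite strand as AACGTG, was found in Cry1, Cry2 and Nr1d1, and in 4.68% of all windows. The ROR core was found in Nr1d2, on the opposite strand in Per1 and Clock, and past the start site in Arntl, and in 16.3% of all windows. No window of Dbp held any of these letters. The matches describe the sequence only and are not measured binding sites. They were also found in members that were not called, and a link between a match and a change with RANKL was not tested.

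Averaged over the 6 libraries, Dbp had the highest level at 25.8 FPKM, followed by Nr1d2 at 21.8 and Per3 at 14.7 FPKM, and the ranges of neighbours among these 3 overlapped. Cry2 (11.1 FPKM), Clock (10.1), Arntl (9.92) and Cry1 (9.07) followed, and the ranges of neighbours in this order overlapped, while each level of Cry2 lay above each level of Cry1. Per1 at 4.30 FPKM lay below all of these in each library, and above Nr1d1 (2.11 FPKM) and Per2 (1.12 FPKM), whose ranges overlapped. The spread over the libraries was widest in Per3, whose highest level was 2.71 times its lowest, and then in Nr1d1 (2.45 times), Per2 (2.12), Nr1d2 (1.92) and Clock (1.91). The other 5 genes stayed within a range of 1.23 times (Per1) to 1.30 times (Arntl).

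**Figure D1:**
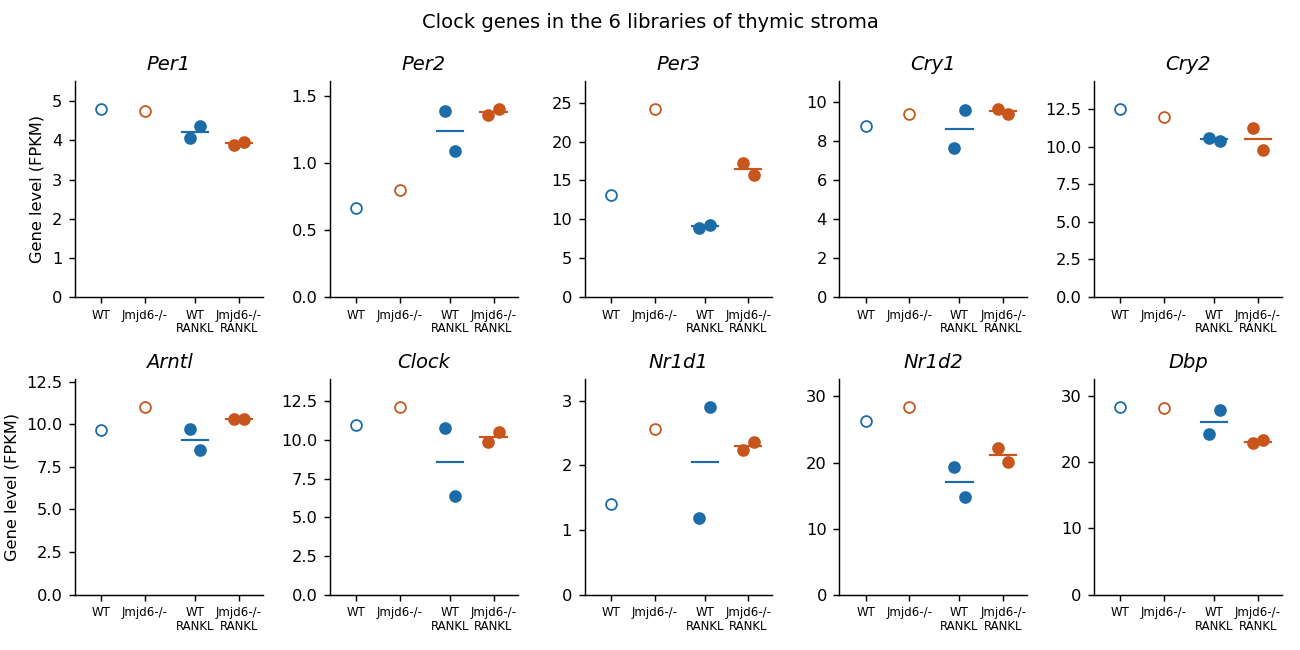
Level of each of the 10 clock genes in FPKM in each of the 6 libraries, with each axis from 0, a point per library (blue for WT, orange for Jmjd6-/-, open without RANKL, filled with RANKL) and a line at the mean of the paired RANKL libraries. Per3 lies at 15.7 to 24.2 FPKM in the 3 Jmjd6-/- libraries and at 8.92 to 13.1 FPKM in the 3 WT libraries, while Cry2 lies at 9.76 to 12.5 FPKM in all 6.

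The design asks what the loss of Jmjd6 does under RANKL, and what RANKL does over both genotypes. Both were fitted over 15894 genes with limma, and a gene was called at a Benjamini-Hochberg adjusted p under 0.05. Under RANKL, 1 of the 10 clock genes, Per3, was called higher in Jmjd6-/- stroma, where 0.516% of all genes were, and 0 were called lower, where 1.82% were. The median genotype difference (log2, Jmjd6-/- minus WT) was 0.17 over the 10 genes and 0.01 over all genes tested. With RANKL, 1 member was called higher (Per2), where 10.5% of all genes were, and 2 were called lower (Per3 and Nr1d2), where 4.11% were. The median log2 change with RANKL was −0.21 over the members and −0.02 over all genes tested. Both comparisons use the 4 RANKL libraries.

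Without a test, the values of the libraries themselves showed the following. Both Jmjd6-/- RANKL libraries lay above both WT RANKL libraries in 3 members (Arntl, Nr1d2 and Per3; 24.5% of all genes) and below them in 2 (Dbp and Per1; 26.2%). Over both states, all 3 Jmjd6-/- libraries lay above all 3 WT libraries in Per3 and Arntl (9.14% of all genes) and below them in 0 members (9.14%). All 4 RANKL libraries lay below the unstimulated library of their own genotype in 6 members (Clock, Cry2, Dbp, Nr1d2, Per1 and Per3; 28.2%) and above it in Per2 alone among the 10 (25.7%). None of the 10 members differed by more than 2-fold between the unstimulated libraries (6.45% of all genes did), with RANKL in WT (13.7%) or with RANKL in Jmjd6-/- stroma (10.6%).

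Bmal1 and Clock are the activating arm. Arntl (chr7:113207465-113314126, mm10, plus strand) was measured at 9.68 FPKM in unstimulated WT, 11.0 in unstimulated Jmjd6-/-, 9.70 and 8.47 in the WT RANKL and 10.3 and 10.3 in the Jmjd6-/- RANKL libraries. The Jmjd6-/- libraries were the higher ones in both states, by a log2 ratio of 0.19 without RANKL and 0.19 (SE 0.14) with it, which was not called. The latter was 0.28 without the first WT RANKL library and 0.088 without the second, not called in either case. With RANKL, Arntl differed by −0.09 (log2, SE 0.11).

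Clock (chr5:76212177-76304548, minus strand) was measured at 10.9 (WT) and 12.1 FPKM (Jmjd6-/-) without RANKL, 10.8 and 6.35 FPKM in the WT RANKL libraries and 9.88 and 10.5 FPKM in the Jmjd6-/- RANKL libraries. The second WT library was the low one, and the other 5 lay between 9.88 and 12.1 FPKM. Clock transcripts are low in GC (40.9%), and the WT RANKL libraries differed by 0.75 on the log2 scale, more than the median of 0.37 for genes lowest in GC. The log2 ratio of Jmjd6-/- to WT was 0.30 (SE 0.26) with both libraries, 0.68 without the first, which was then called, and −0.08 without the second. Its direction therefore rested on 1 WT library, and with the GC and length trend removed it was 0.10 and not called.

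The Per genes encode the repressors whose levels set the phase of the loop, and each had a pattern of its own. Per1 (chr11:69098956-69109957, plus strand), the member that responds most directly to outside signals, was measured at 4.80 FPKM in unstimulated WT, 4.75 in unstimulated Jmjd6-/-, 4.05 and 4.36 in the WT RANKL and 3.89 and 3.97 in the Jmjd6-/- RANKL libraries. All 4 RANKL libraries lay below both unstimulated ones, by 0.23 on the log2 scale (SE 0.13), which was not called. The genotypes differed by −0.01 (log2) without RANKL and −0.09 (SE 0.16) with it.

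Per2 (chr1:91415982-91459328, minus strand) went the other way. It was measured at 0.661 FPKM in unstimulated WT, 0.796 in unstimulated Jmjd6-/-, 1.39 and 1.09 in the WT RANKL and 1.36 and 1.40 in the Jmjd6-/- RANKL libraries. The unstimulated libraries were the 2 lowest. RANKL libraries were 1.70-fold higher (log2 0.77, SE 0.20, on the scale with 0.1 FPKM added), with a log2 change of 0.81 in WT and 0.73 in Jmjd6-/- cultures. The call held in 6 of 13 alternative settings, with log2 values of 0.42 to 0.84. The genotypes were close under RANKL at 1.24 ± 0.212 (WT) and 1.38 ± 0.0290 FPKM (Jmjd6-/-; SD, n = 2 each). At its lowest library Per2 rested on about 74 fragments, a counting error of 11.6%.

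Per3 (chr4:151003655-151044622, minus strand) differed most between the genotypes. It was measured at 13.1 (WT) and 24.2 FPKM (Jmjd6-/-) without RANKL. With RANKL it was measured at 8.92 and 9.31 FPKM in the WT and at 17.3 and 15.7 FPKM in the Jmjd6-/- libraries. Each Jmjd6-/- library lay above each WT library, and within each genotype the RANKL libraries lay below the unstimulated one. The study also listed an intron of Per3 among those found more often in transcripts of Jmjd6-/- than of WT stroma under RANKL. An FPKM per gene does not separate transcripts with that intron from those without it.

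Under RANKL the mean of Per3 was 9.11 ± 0.278 FPKM in WT and 16.5 ± 1.14 FPKM in Jmjd6-/- stroma (SD, n = 2 each), a 1.80-fold difference (log2 0.85, SE 0.13, 95% interval 0.53 to 1.16). Without RANKL the single libraries differed by 1.84-fold (log2 0.88). The fall with RANKL was 1.45-fold over both genotypes (log2 −0.54, SE 0.09), with −0.52 in WT and −0.55 in Jmjd6-/- cultures, and the difference between these responses was −0.03 (log2, SE 0.22). Over the alternatives the genotype log2 ratio stayed between 0.78 and 0.92 and was called in 8 of 14. The RANKL change stayed between −0.56 and −0.50 and was called in 11 of 13. Leaving out either Jmjd6-/- RANKL library ended both calls, at log2 ratios of 0.78 and 0.92 for genotype.

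**Figure D2:**
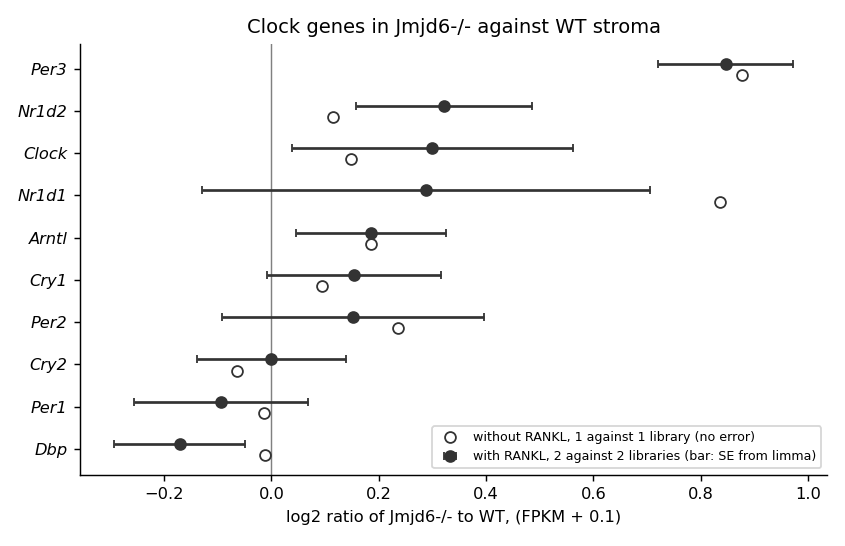
Log2 ratio of Jmjd6-/- to WT for the 10 clock genes, under RANKL as the fitted difference of 2 against 2 libraries with its SE (filled points), and without RANKL as the ratio of the single libraries (open points). Per3 stands at 0.85 with RANKL and 0.88 without it, and Nr1d1 has the widest error (SE 0.42).

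The genes beside Per3 were looked at for a shared pattern. Vamp3, within 5 kb of Per3, was measured at 66.6 to 72.1 FPKM in all 6 libraries, and Uts2 was listed at 0 in all. Camta1 overlaps Per3 by 41014 bases on the same strand in the GENCODE annotation, which differs from the deposited gene models. The level of Camta1 is not given here, and its part in the Per3 values was not tested. Among 12586 other genes that averaged 1 FPKM or more, the 5 whose log2 levels ran most like those of Per3 over the 6 libraries were Tor1b (Pearson r 0.9995), Sdk1 (0.998), Rfxank (0.996), 4930556M19Rik (0.996) and Mrpl41 (0.995). An r above 0.95 was found for 168 genes, and the 6 points share genotype, RANKL and library, so the likeness is a description. Tor1b itself was measured at 18.0 to 19.6 FPKM in the WT and 20.5 to 22.3 FPKM in the Jmjd6-/- libraries, a far smaller difference than that of Per3.

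The cryptochromes are the partners of the Per proteins and the main blockers of the Clock-Bmal1 pair. Cry1 (chr10:85131700-85185054, minus strand) was measured at 8.80 (WT) and 9.40 FPKM (Jmjd6-/-) without RANKL, 7.64 and 9.57 FPKM in the WT RANKL and 9.64 and 9.41 FPKM in the Jmjd6-/- RANKL libraries. One WT RANKL library was the lowest and the other 5 lay between 8.80 and 9.64 FPKM. The log2 differences were −0.01 (SE 0.12) with RANKL and 0.15 (SE 0.16) between genotypes.

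Cry2 (chr2:92403647-92434069, minus strand) was measured at 12.5 (WT) and 11.9 FPKM (Jmjd6-/-) without RANKL, 10.6 and 10.4 FPKM in the WT RANKL and 11.3 and 9.76 FPKM in the Jmjd6-/- RANKL libraries. The RANKL libraries were the lower ones, by −0.22 (log2, SE 0.10), which was not called. Under RANKL the genotypes had means of 10.5 ± 0.167 (WT) and 10.5 ± 1.06 FPKM (Jmjd6-/-; SD, n = 2 each), with a 95% interval of the log2 ratio of −0.35 to 0.35. Its locus is shared with D930015M05Rik on the opposite strand (0.364 to 1.06 FPKM). Without strand, reads from any stretch that is exon in both genes cannot be told apart, and the overlap of exons was not examined.

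The Rev-erb receptors bind ROR elements and repress Arntl there. Nr1d2 (chr14:18204056-18239106, minus strand) was measured at 26.3 (WT) and 28.4 FPKM (Jmjd6-/-) without RANKL, 19.3 and 14.8 FPKM in the WT RANKL and 22.1 and 20.1 FPKM in the Jmjd6-/- RANKL libraries. All RANKL libraries lay below both unstimulated ones. The fall was 1.45-fold over both genotypes (log2 −0.53, SE 0.13), with −0.64 in WT and −0.43 in Jmjd6-/- cultures. It was called in 7 of 13 alternatives, with values of −0.60 to −0.40, and with the GC and length trend removed it was −0.50 and still called. Between genotypes the log2 ratio was 0.32 (SE 0.16, not called), 0.51 and called without the first WT RANKL library, and 0.13 and not called without the second.

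Nr1d1 (chr11:98767935-98775242, minus strand) was measured at 1.39 FPKM in unstimulated WT, 2.57 in unstimulated Jmjd6-/-, 1.19 and 2.90 in the WT RANKL and 2.24 and 2.36 in the Jmjd6-/- RANKL libraries. The WT RANKL libraries were the lowest and the highest of all 6, a log2 difference of −1.22, while those of Jmjd6-/- stroma differed by −0.07. Its transcripts are rich in GC (56.8%). That difference exceeded the median of −0.21 in the group of genes with a median GC of 56.5%, and that of −0.27 in the group highest in GC. The genotype log2 ratio under RANKL was 0.29 (SE 0.42, 95% interval −0.76 to 1.34) with both WT libraries. It was −0.32 without the first and 0.90 without the second, which was then called. Without RANKL the Jmjd6-/- library was 1.79-fold higher, which is 1 library against 1. With RANKL Nr1d1 differed by 0.12 (log2, SE 0.34) over both genotypes. The deposited locus adjoins Thra on the opposite strand (8.38 to 15.2 FPKM), whose GENCODE model overlaps it by 1075 bases, so its reads carry the same doubt on strand as those of Cry2.

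**Figure D3:**
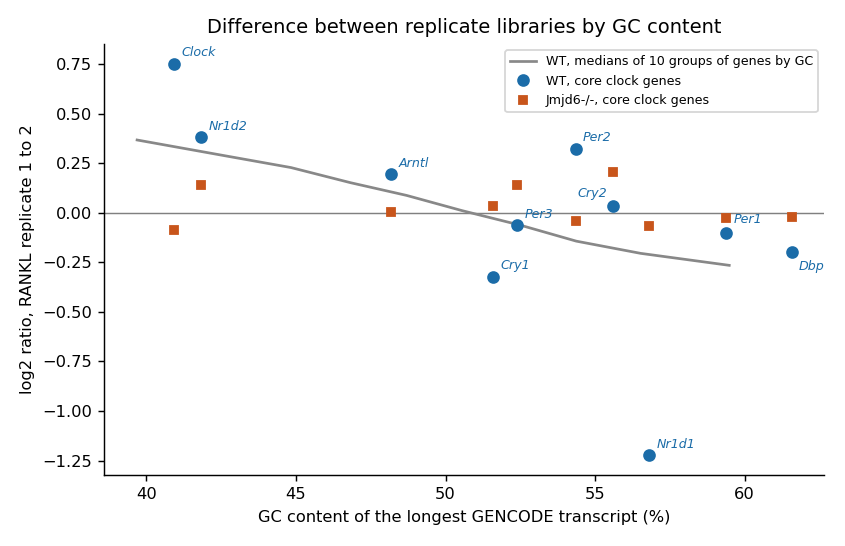
Median log2 difference of WT RANKL replicate 1 to replicate 2 in 10 groups of genes by transcript GC content (line), with the 10 clock genes as points (blue circles for WT, orange squares for the same difference in Jmjd6-/-). The line runs from 0.37 at low GC to −0.27 at high GC, with Nr1d1 (−1.22) the WT point farthest from it and Clock (0.75) and Per2 (0.32) above it.

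Dbp (deposited locus chr7:45705247-45718002, plus strand), the output factor, was measured at 28.4 (WT) and 28.1 FPKM (Jmjd6-/-) without RANKL, 24.3 and 27.9 FPKM in the WT RANKL and 22.9 and 23.3 FPKM in the Jmjd6-/- RANKL libraries. All RANKL libraries lay below the unstimulated ones, by −0.20 (log2, SE 0.10), which was not called. With the GC and length trend removed the change was −0.43 and called, as was that of Cry2 at −0.33. The log2 ratio of Jmjd6-/- to WT was −0.17 (SE 0.12), −0.27 and called without the first WT RANKL library and −0.07 without the second. The same deposited locus is given for Sphk2 on the opposite strand (13.7 to 20.8 FPKM), so the interval covers more than Dbp. In GENCODE, Sphk2 spans 45709467-45718002 and the 2 genes overlap by 737 bases.

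The response to RANKL was called different between genotypes in 0 of the 10 members and in 0 of all 15894 genes by limma. An unadjusted p under 0.05 was found for 664 genes (4.18%), with 0 members among them. The estimate was −0.03 for Per3 and −0.55 (SE 0.72) for Nr1d1, and each unstimulated group had 1 library, so that a difference of this size in Nr1d1 was not resolvable. Exact permutation over the 2 against 2 RANKL libraries cannot give a two-sided p below 0.333.

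Beyond the 10 members, 24 further clock genes were described by role, as 11 transcription factors, 8 enzymes that act on clock proteins and 5 output genes. These lists too were chosen with earlier results of these data known, so their counts and the p-values of their genes are a description. The adjustment over all genes does not cover that choice. With RANKL, 8 of the 24 rose (10.5% of all genes did) and 1 fell (4.11%), and their median log2 change was 0.0057. Between genotypes under RANKL 0 of the 24 were called by limma, where 0.516% of all genes were called higher and 1.82% lower. By list, with RANKL, 4 of 11 transcription factors rose and 0 fell, and 3 of 5 output genes rose and 0 fell. Of the 8 enzymes 1 rose and 1 fell. Of all genes 10.5% rose and 4.11% fell, and 1 of 8 is close to the share that rose.

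Among the transcription factors, Nfil3, the repressor that binds the same D-boxes as Dbp, rose most. It was measured at 2.43 (WT) and 3.09 FPKM (Jmjd6-/-) without RANKL and at 6.99, 9.93, 9.67 and 9.56 FPKM in the RANKL libraries (WT, then Jmjd6-/-), a log2 change of 1.67 (SE 0.16, limma adjusted p 0.0012). Tef, an activator at D-boxes, differed by −0.34 and missed the threshold (adjusted p 0.0615), and Dbp was not called either. Npas2, which can take the place of Clock beside Bmal1, rose from 1.43 and 1.22 FPKM to 3.31, 3.44, 2.40 and 2.27 FPKM (log2 1.03, SE 0.16, adjusted p 0.00816). Bhlhe40, a repressor at E-boxes, rose from 31.4 and 28.9 FPKM to 44.4, 56.3, 57.5 and 56.8 FPKM (log2 0.82, SE 0.12, adjusted p 0.007). Both were thus higher in every RANKL library than in either unstimulated one. Timeless, a partner of clock and replication checkpoint proteins, rose by 0.73 (SE 0.15, adjusted p 0.0247). Rora, an activator at ROR elements, differed between genotypes by 0.85 (log2, SE 0.25), as much as Per3, but was not called (adjusted p 0.153). Of the 24 genes, 16 had a genotype log2 ratio above 0 and 8 below it. The output gene Klf10 was nearer to a call than Rora (log2 0.58, SE 0.14, adjusted p 0.0976). Npas2 (log2 −0.51, SE 0.19) and the output gene Usp2 (log2 −0.74, SE 0.27) were lower in Jmjd6-/- stroma and not called.

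Of the enzymes, the deacetylase Sirt1 rose from 16.1 and 17.5 FPKM to 23.7 to 36.9 FPKM (log2 0.82, SE 0.17, limma adjusted p 0.0238) and the kinase Csnk1e, which phosphorylates Per proteins, fell from 28.4 and 26.5 FPKM to 20.5 to 22.7 FPKM (log2 −0.35, SE 0.08, adjusted p 0.0339). Of the output genes, Nampt, the rate-limiting enzyme of NAD salvage, rose from 50.8 and 44.7 FPKM to 70.5 to 85.0 FPKM (log2 0.70, SE 0.09, adjusted p 0.00413). Klf10, a zinc finger factor, rose by 0.70 (SE 0.15, adjusted p 0.0243) and Ccrn4l, the deadenylase-related nocturnin, by 0.48 (SE 0.13, adjusted p 0.0499). For Klf10 the log2 change was 0.43 in WT and 0.97 in Jmjd6-/- cultures, a difference that was not called. The calls of Nfil3, Npas2 and Nampt held in 13 of 13 alternatives and that of Bhlhe40 in 12, while those of Timeless, Sirt1, Klf10 and Csnk1e held in 8 and that of Ccrn4l in 7.

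**Figure D4:**
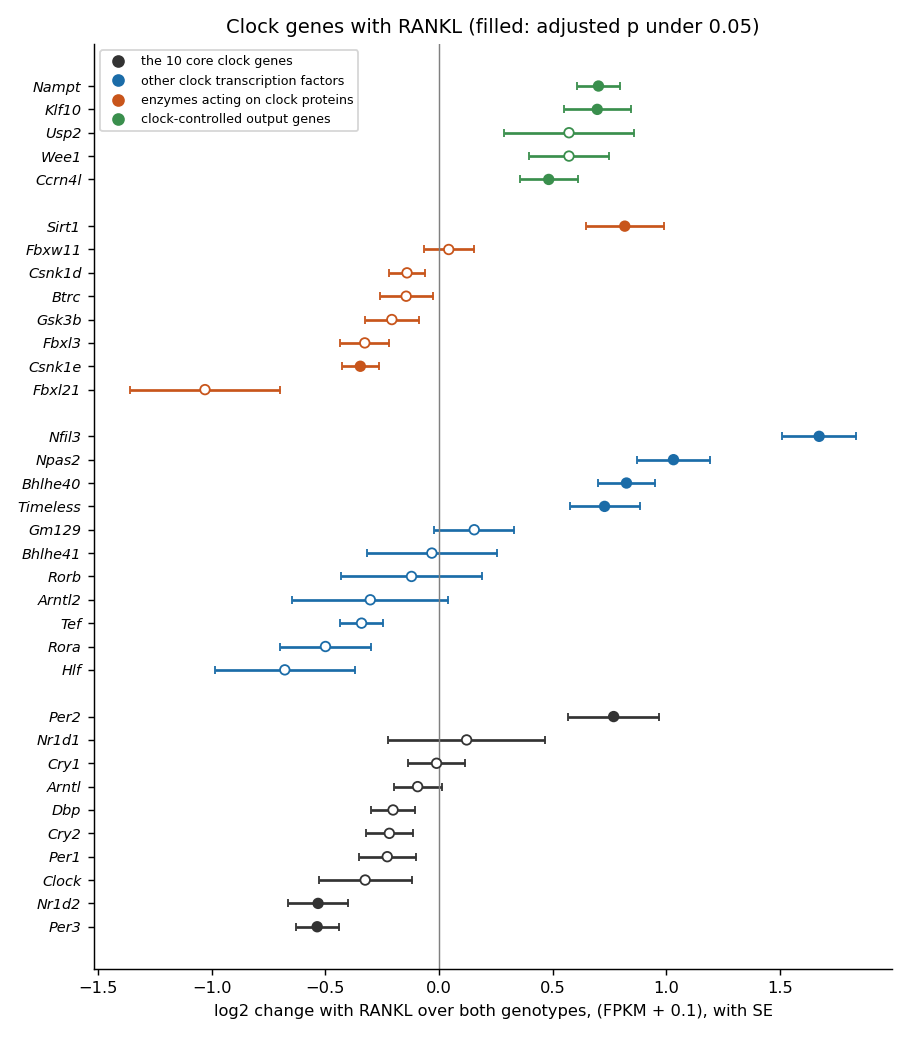
Log2 change with RANKL over both genotypes for the 10 clock genes and the 24 further clock genes, with the SE as bars and filled points for genes past the threshold. Nfil3 is the highest at 1.67, and the 10 members lie between −0.54 (Per3) and 0.77 (Per2).

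Genes that respond to signals known to act on Per1 were listed as well, in 2 lists chosen in the same way. Of 6 glucocorticoid-induced genes 5 were tested (Zbtb16 was under the filter), and 1 rose with RANKL, where 10.5% of all genes did. It was the kinase Sgk1, from 5.69 and 7.74 FPKM to 9.47 to 13.5 FPKM (log2 0.76, SE 0.11, limma adjusted p 0.00647). A single gene of 5 is not read as a result about the list. Of 8 immediate early genes 2 rose (10.5% of all genes did), Egr2 (log2 1.96, SE 0.27, adjusted p 0.00455) and Junb (log2 1.21, SE 0.21, adjusted p 0.0124). Between genotypes under RANKL 0 genes of either list were called by limma, where 0.516% of all genes were called higher and 1.82% lower. Per1 itself had its 4 lowest levels in the RANKL libraries, and its link to these lists was not tested.

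The tissue was checked by marker lists, each as a summed FPKM. The 6 thymic epithelial markers came to 3435 to 4765 FPKM in the WT and 4881 to 4916 FPKM in the Jmjd6-/- libraries. Most of this sum was Krt8 and Krt5 (2520 and 1548 FPKM in unstimulated WT). Under RANKL 3 of these markers were higher in Jmjd6-/- stroma (Krt8, Krt5 and Foxn1) and 3 lower (Epcam, Psmb11 and Aire), and none was called. The 6 mesenchymal markers were at 545 to 606 FPKM in WT and 251 to 357 FPKM in Jmjd6-/- stroma, and the 4 endothelial markers at 9.67 to 20.4 FPKM and 3.13 to 6.71 FPKM. Under RANKL, Col3a1 of the first list and Pecam1 and Cdh5 of the second were called lower in Jmjd6-/- stroma. Between genotypes, Per3 and Arntl were higher in the Jmjd6-/- libraries, in which the sums of these 2 lists were lower. Within each genotype, Per3 and the endothelial sum were both lower in the RANKL libraries than in the unstimulated one. The part of either list in the result was not tested. The 5 macrophage markers were at 201 to 334 FPKM in WT and 216 to 260 FPKM in Jmjd6-/- stroma. The 5 T-lineage markers summed to at most 2.13 FPKM, with Cd3d and Cd3e each at 0 in 5 of 6 libraries. In the RANKL comparison, in which Per3 and Nr1d2 fell, 3 of 4 endothelial and 2 of 5 macrophage markers fell, and 1 mesenchymal (Dcn), 1 epithelial (Aire) and 1 T-lineage marker (Lck) rose, against 4.11% of all genes that fell and 10.5% that rose, whose part was not tested either.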

How the data were processed

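The authors deposited 1 table of FPKM per gene for all 6 libraries. Per the study's methods and the submitters' processing notes, poly-A RNA was sequenced in paired-end mode, reads were filtered by a filter that is not specified, mapped to mm10 with TopHat2 2.0.10, and FPKM were computed with Cufflinks 2.1.1 with correction for multi-mapped reads and a strand-specific library type. The library preparation described names no step that keeps the strand. The values were used as deposited, with groups taken from the titles of the samples. The treatment field gives RANKL for all samples. The number of fragments per library was inferred from the spacing of low values, is approximate, and counting errors given from it cover counting error only.

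With limma 3.58.1 in R 4.3.3, log2(FPKM + 0.1) was fitted for the 15894 genes that averaged 0.1 FPKM or more, using a mean-variance trend, and p-values were adjusted by Benjamini-Hochberg over all of them. Folds are on that scale, which understates changes of low genes. RANKL was tested in all libraries in a model that also held genotype. Genotypes under RANKL, and the difference in response, were tested in a model with 1 mean per condition, in which only the RANKL libraries inform the spread. The script was tested on simulated data.

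The members and the lists were chosen with earlier results of these data known. Named were all 10 members, 5 marker lists and genes overlapping or adjoining a member. The 5 genes most like the member with the largest genotype difference were named too. Genes called, and some that missed the threshold, were named from 3 lists of clock genes and 2 of genes responding to signals on Per1. A gene first listed with the clock transcription factors is not reported here and was left out of that list's counts. Rora, Tef and Usp2, which missed the threshold, were named after their values were seen. The genotype ratios of Klf10 and Npas2 were added in the same way. The alternatives were an added 1 or 0.01 FPKM, a filter at 1 FPKM or none, no trend, libraries scaled by total or by median ratio, each RANKL library left out, the replicate number as a block, and the 4 RANKL libraries alone. Removal of a trend in GC content and transcript length was chosen after seeing the data. Promoter windows came from RefSeq (GRCm38.p6).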

Additional observations from a re-analysis of the deposited data

How the results depend on the processing

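Depth limits Per2 and Nr1d1, which rested on as few as 74 and 92 fragments, and 2 libraries per RANKL group limit all tests. With RANKL, the count of members that rose (1) was 0 with no filter, a filter at 1 FPKM, equal totals or the replicate block, and 0 to 1 with a RANKL library left out. The count that fell (2) was 1 with no filter, no trend, equal totals or the replicate block, 4 with the GC and length trend removed, and 0 to 3 with a library left out. It was 0 without either Jmjd6-/- RANKL library. Of the further clock genes, the count that rose (8) was 3 with no filter, 5 with equal totals or the replicate block, and 4 to 9 with a library left out. The count that fell (1, Csnk1e) was 0 with no trend, equal totals or the replicate block, 5 with the GC and length trend removed, and 0 to 3 with a library left out. The median change of the members was −0.17 with scaling by the median ratio and −0.20 to −0.19 with a library left out.

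Between genotypes, the count of members called higher (1) was 0 with a constant of 0.01, no filter, no trend or equal totals. With a library left out it was 0 to 3, the 3 being Clock, Nr1d2 and Per3 without WT RANKL replicate 1, and Nr1d1 joined Per3 without replicate 2. The count called lower (0) was 0 to 1 (Dbp, without WT RANKL replicate 1). Of the further clock genes 0 to 6 were called higher (6 without WT RANKL replicate 1) and 0 to 1 lower. The median ratio of the members ranged from 0.04 to 0.18. In a fit that leaves 1 library in a group, that library is assumed to vary like the others.

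Signs turned for small differences. With RANKL, Cry1 was at 0.025 with the median ratio and −0.076 to 0.063 with a library left out, and Nr1d1 at −0.20 with the replicate block, −0.073 with the GC and length trend removed and −0.18 to 0.34 with a library left out. Between genotypes with a library left out, Per2 ranged from −0.0097 to 0.31, Cry1 from −0.0077 to 0.31, Cry2 from −0.10 to 0.10, Clock from −0.076 to 0.68 and Nr1d1 from −0.32 to 0.90. Cry2 was also at 8.9e-05 with a constant of 1 and 0.041 with the GC and length trend removed. The difference in response ranged from −0.10 to 0.039 for Per3 and −1.16 to 0.063 for Nr1d1. The log2 change of Per2 within a genotype was 0.43 in WT and 0.41 in Jmjd6-/- stroma with a constant of 1. The cause of these shifts was not tested.

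The replicate numbers are shared by the WT and Jmjd6-/- RANKL libraries, but the replicate differences of the genotypes correlated at −0.0778 across 12587 genes, and with 2 pairs the numbers were not taken to pair the samples. With the replicate number as a block, Per3 stayed called between genotypes (log2 0.85) and was the 1 member called with RANKL.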
